A study of Mus musculus with 4 samples.

Results

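Ccr7, S1pr1, S1pr4, Klf2 and Cd69 are 5 of the 32285 genes in the count matrices, chosen by symbol because together they set how lymphocytes enter, stay in and leave a lymph node. CCR7 is the chemokine receptor that follows CCL19 and CCL21 into and within the node, on naive T cells and on dendritic cells that arrive from tissue. S1PR1 senses sphingosine 1-phosphate at the exit and drives egress, S1PR4 is a second receptor for the same lipid on leukocytes, and KLF2 is the transcription factor that drives S1pr1 in quiescent T cells. CD69 is an early activation antigen whose protein binds S1PR1 and pulls it off the surface, which holds activated cells in the node.

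The nodes drained tumors in wild type mice and were taken 8 days after the tumor cells had been injected. One group ate chow with RGX-104 from day 3, and the other ate control chow throughout. RGX-104 activates the liver X receptors (LXR), nuclear receptors that sense oxysterols and govern cholesterol export. LXR activation has been reported to repress Ccr7 in dendritic cells, which is the question behind the values in antigen-presenting cells (APCs) below. T cells and APCs were sorted from digested tissue and read with 10x 5′ single-cell RNA sequencing, with 1 RNA library and 1 T cell receptor (TCR) library per chow. The tumor line and the number of mice behind a library are not given in the sources used here.

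With 1 library per chow there is no replicate error and no test between chows. A level is given in CPM, the number of unique molecular identifiers (UMIs) of a gene among 1000000 UMIs of the named cells, which were added up within 1 library. A ratio is RGX-104 over control with a 95% interval in parentheses. These intervals cover counting error only, not the spread between mice, nodes or preparations. A gene was measured where both libraries together held at least 50 UMIs of it in the cells compared, and a type was compared where each library held at least 50 of its cells.

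There were 38480769 UMIs over 8671 barcodes in the RGX-104 library and 31530931 UMIs over 7346 barcodes in the control library. The authors' annotation named 1995 T cells and 949 APCs in the RGX-104 library, and 2099 T cells and 782 APCs in the control library. Median depth was 5048 UMIs in RGX-104 T cells and 4944 in control T cells, and 9043 UMIs in RGX-104 APCs and 8052 in control APCs. The libraries shared 95 barcodes. Abca1, an LXR target used as a check of the chow labels, stood at 115 CPM in RGX-104 T cells and 13.8 CPM in control T cells, and at 99.1 CPM in RGX-104 APCs and 6.84 CPM in control APCs. As a check of stray cells and RNA, 6 APC markers summed to 398 CPM in RGX-104 T cells and 284 CPM in control T cells, and 8 T cell markers summed to 42.6 CPM in RGX-104 APCs and 43.2 CPM in control APCs. The sum of 26 dissociation and stress genes was lower in the RGX-104 library in 8 of 8 compared T cell types (ratios 0.833 to 0.958) and 6 of 6 compared APC types (0.808 to 0.942).

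Each member has 1 row in the feature table and is protein coding, and the positions are on GRCm38, the assembly behind mm10. S1pr1 (ENSMUSG00000045092) lies on chromosome 3 from 115710433 to 115715055, and Cd69 (ENSMUSG00000030156) on chromosome 6 from 129267324 to 129275375. Klf2 (ENSMUSG00000055148) lies on chromosome 8 from 72319062 to 72321654. S1pr4 (ENSMUSG00000044199) lies on chromosome 10 from 81497745 to 81500137, and Ccr7 (ENSMUSG00000037944) on chromosome 11 from 99144199 to 99155077.

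The RefSeq promoter table for GRCm38.p6 held 2 of the 5 members, Klf2 and S1pr4. Their 250 bases before the start are shown because only these 2 members had an entry. Klf2 was lower in the RGX-104 library in every compared type, and the interval of S1pr4 included 1 in every compared T cell type. The capitals mark the single KLF box in each, CACCC, which reads GGGTG on the gene's strand.
Klf2, chr8:72318812-72319061, plus strand: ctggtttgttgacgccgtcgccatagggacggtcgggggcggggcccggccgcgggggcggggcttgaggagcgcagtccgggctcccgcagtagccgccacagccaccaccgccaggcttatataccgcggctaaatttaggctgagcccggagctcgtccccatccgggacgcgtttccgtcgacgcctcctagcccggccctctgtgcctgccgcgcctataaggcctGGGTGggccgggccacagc
S1pr4, chr10:81500138-81500387, minus strand: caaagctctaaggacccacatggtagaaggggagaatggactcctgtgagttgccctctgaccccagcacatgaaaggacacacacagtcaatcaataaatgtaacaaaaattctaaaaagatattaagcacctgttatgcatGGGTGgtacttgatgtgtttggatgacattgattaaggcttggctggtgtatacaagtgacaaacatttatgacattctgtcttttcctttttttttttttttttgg

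The box begins 19 bases before the start of Klf2 and 107 bases before that of S1pr4. It is a common sequence, present on either strand in 52.0% of the 32851 RefSeq promoter windows. Neither window held the LXR direct repeat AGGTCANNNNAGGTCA, exactly (0.0152% of windows) or with up to 2 mismatches (2.57%). Neither held the FOXO core GTAAACA (3.17% of windows) or the AP-1 site TGANTCA (6.75%). Both strands were searched, and a match or its absence in these letters says nothing about binding.

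Klf2 was lower in RGX-104 T cells, at 509.6 CPM (5765 UMIs), against 732 CPM (8390 UMIs) in control T cells, a ratio of 0.696 (0.673 to 0.720). Of the 10214 genes measured in all T cells, 2.32% had a lower ratio than Klf2. The interval lay below 1 for 12.6% of them and above 1 for 10.1%. In the 8 compared T cell types the interval of Klf2 lay below 1 in 8. The share of all measured genes with an interval below 1 was 7.68% in CD8_01, 6.88% in CD8_02, 5.77% in CD8_03, 5.54% in Th1_01, 5.26% in Th1_02, 5.57% in Th1_03, 6.51% in Tfh and 8.5% in Treg.

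The size of the Klf2 difference was not the same across T cell types. Tfh cells held 147 CPM in the RGX-104 library and 367 CPM in the control library, a ratio of 0.400 (0.309 to 0.515). Treg cells held 143 CPM in the RGX-104 library and 294 CPM in the control library, a ratio of 0.488 (0.369 to 0.639). These 2 types also had the lowest Klf2 of the compared T cell types in both libraries. In the CD8_01, CD8_02, Th1_01 and Th1_02 types, which held most T cells, the ratio was 0.688 to 0.708. In the 22 RGX-104 and 31 control Th1_02 cells with both cycle scores under 0 the direction turned, to 1.20. The Th1_03 cells had 728 CPM in the RGX-104 library and 911 CPM in the control library, a ratio of 0.799 (0.723 to 0.883), the closest to 1. The Tfh cells differed in makeup as well, since the CD8 markers Cd8a and Cd8b1 summed to 106 CPM in RGX-104 Tfh cells and 510 CPM in control Tfh cells. The part of that in the Klf2 ratio of Tfh cells was not tested.

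**Figure D1:**
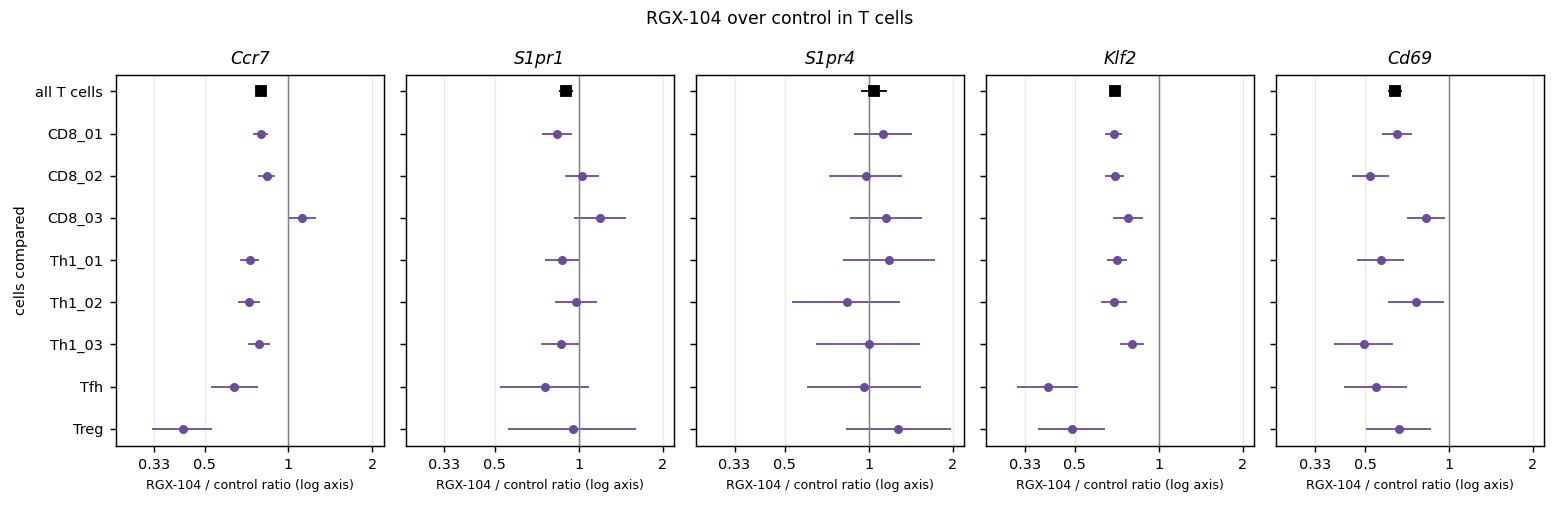
Ratio of each gene, RGX-104 over control, in all T cells (black squares) and in each compared T cell type (circles), on a log axis. Lines are 95% counting intervals. Klf2 and Cd69 lie left of 1 in all 8 types, Ccr7 lies right of 1 in CD8_03 alone, and the intervals of S1pr4 all include 1.

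Klf2 was lower in the APCs of the RGX-104 library too, at 192 CPM, against 316 CPM in control APCs, a ratio of 0.606 (0.570 to 0.644). In all APCs, 17.7% of the 10346 measured genes had an interval below 1 and 10.9% one above 1. The interval lay below 1 in 6 of 6 compared APC types. The share of all measured genes with an interval below 1 was 6.04% in mLC, 11.3% in mcDC1, 8.92% in mcDC2, 8.98% in rcDC1, 5.98% in rcDC2 and 12.2% in mono. Klf2 was lowest of the compared types in mLC, with 37.8 CPM (39 UMIs) in the RGX-104 library and 95.6 CPM (100 UMIs) in the control library, a ratio of 0.395 (0.266 to 0.578). In rcDC2 it stood at 246 CPM in the RGX-104 library and 482 CPM in the control library, a ratio of 0.509 (0.441 to 0.588). In rcDC1 it stood at 326 CPM in the RGX-104 library and 369 CPM in the control library, a ratio of 0.886 (0.803 to 0.977). The other 3 ratios were 0.573 in mcDC2, 0.617 in mono and 0.711 in mcDC1. Over both lineages the interval of Klf2 lay below 1 in 14 of 14 compared types. The ratio over all APCs also rests on pDC, which made up 0.948% of RGX-104 APCs and 6.78% of control APCs and held 300.3 CPM of Klf2 in RGX-104 pDC (9 cells) and 912 CPM in control pDC (53 cells). With the 6 compared types at equal weights in both libraries, the Klf2 ratio in APCs was 0.646.

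Klf2 and S1pr1 UMIs stood in different proportions in APCs and in T cells. APCs of the RGX-104 library held 1907 Klf2 UMIs and 62 S1pr1 UMIs, while T cells of that library held 5765 and 2224. APCs of the control library held 2311 Klf2 UMIs and 35 S1pr1 UMIs, while T cells of that library held 8390 and 2505.

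Genes of the dissociation and stress response differed in the same direction in many of these cells. Fos, an immediate early transcription factor, stood at 109 CPM in RGX-104 T cells and 186 CPM in control T cells, a ratio of 0.585 (0.545 to 0.628). Jun, its partner in AP-1, had a ratio of 0.552 (0.505 to 0.602), and Atf3, a stress-induced factor, had one of 0.482 (0.368 to 0.626). Of the 24 measured genes of that list in T cells, 3 were at least 1.5-fold lower in the RGX-104 library and 0 higher, where 1.66% of all measured genes were that much lower and 2.92% higher. The list did not go 1 way throughout: 14 of the 24 had an interval below 1 and 5 had one above 1. Of all measured genes in T cells, 12.6% had an interval below 1 and 10.1% one above 1. In mLC, where Klf2 was lowest relative to control, Fos stood at 360 CPM in the RGX-104 library and 335 CPM in the control library, a ratio of 1.07 (0.926 to 1.25), and Jun had a ratio of 0.383 (0.255 to 0.564). In CD8_03 cells Jun had a ratio of 0.907 (0.680 to 1.21) and Fos one of 0.637 (0.505 to 0.802), beside 0.774 for Klf2. The part of the dissociation response in the Klf2 and Cd69 ratios was not tested.

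Cd69 was lower in RGX-104 T cells, at 163 CPM (1840 UMIs), against 254 CPM (2909 UMIs) in control T cells, a ratio of 0.641 (0.604 to 0.680), and 1.29% of measured genes had a lower ratio. Its interval lay below 1 in 8 of 8 compared types. Th1_03 cells held 107 CPM in the RGX-104 library and 216 CPM in the control library, a ratio of 0.496 (0.388 to 0.631). CD8_02 cells held 149 CPM in the RGX-104 library and 285 CPM in the control library, a ratio of 0.523 (0.448 to 0.609). At the other end, CD8_03 cells held 239.5 CPM in the RGX-104 library and 289.5 CPM in the control library, a ratio of 0.827 (0.706 to 0.970), which was 1.03 in the cells with both cycle scores under 0. The CD8_03 cells had the highest Cd69 of the compared types in both libraries, and only in the RGX-104 library did their interval stand clear of the next type.

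Cells with a Cd69 transcript were fewer in the RGX-104 library at equal depth. With each T cell thinned to 2000 UMIs, 22.1% of 1968 RGX-104 T cells (20.2 to 24.0) and 32.5% of 2058 control T cells (30.4 to 34.5) held a Cd69 UMI. At full depth, 832 of 1995 RGX-104 T cells and 1156 of 2099 control T cells held one. In thinned APCs the share was 2.19% in the RGX-104 library and 4.47% in the control library, where 11 of the 34 cells with a Cd69 UMI were pDC. Without pDC, an alternative chosen after seeing the data, the APC share was 2.21% in the RGX-104 library and 3.25% in the control library. Among the T cells that kept a Cd69 UMI after thinning, the mean number was 1.45 in the RGX-104 library and 1.66 in the control library.

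**Figure D2:**
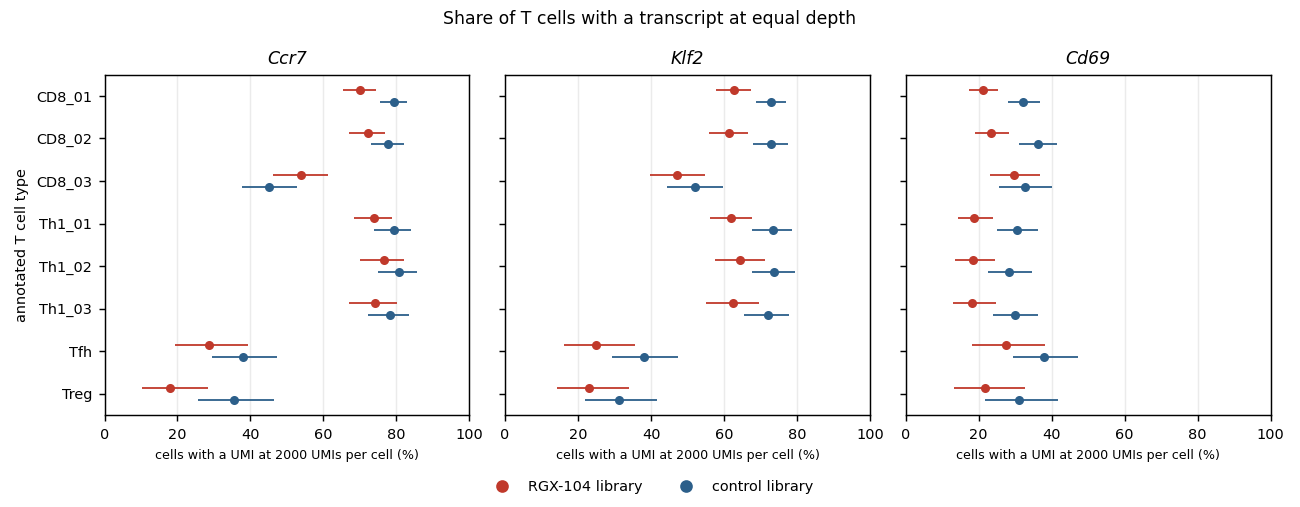
Percent of cells with at least 1 UMI of Ccr7, Klf2 or Cd69 after each cell was thinned to 2000 UMIs, by T cell type, with Clopper-Pearson 95% intervals (RGX-104 above control in each type). Cd69 shares are lower in the RGX-104 library in all 8 types, and the Ccr7 share is higher there only in CD8_03, at 53.8% against 45.1%.

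S1pr1, the egress receptor, differed less. RGX-104 T cells held 197 CPM (2224 UMIs) and control T cells 219 CPM (2505 UMIs), a ratio of 0.900 (0.849 to 0.953), and 22.2% of measured genes had a lower ratio. In single types the interval lay below 1 in 1 of 8, CD8_01, at 196 CPM in the RGX-104 library and 234 CPM in the control library, a ratio of 0.836 (0.740 to 0.943). The other 7 intervals included 1. Their ratios ran from 0.758 (0.524 to 1.09) in Tfh to 1.19 (0.964 to 1.48) in CD8_03. The width of the interval differed by type with the number of UMIs. Both ends of this range crossed 1 in cells thinned to equal depth, as for the Cd69 shares above. Thinned, the S1pr1 ratio was 1.13 in Tfh and 0.841 in CD8_03. In each of these types 8 of 9 alternatives stayed on the main side of 1. In Treg cells, where S1pr1 was lowest of the 8 compared T cell types, there were 28 UMIs (52.1 CPM) in the RGX-104 library and 35 UMIs (54.7 CPM) in the control library. That ratio, 0.953 (0.559 to 1.61), was 1.82 in the Treg cells with both cycle scores under 0.

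S1pr4 showed no difference that counting error did not cover. RGX-104 T cells held 58.4 CPM (661 UMIs) and control T cells 56.0 CPM (642 UMIs), a ratio of 1.04 (0.935 to 1.16). The 8 single-type ratios ran from 0.834 (0.531 to 1.30) in Th1_02 to 1.27 (0.825 to 1.97) in Treg. Single alternatives moved 3 of them by over 1.5 times: in cells with both cycle scores under 0 the ratio was 0.518 in Th1_02 and 0.411 in Tfh, and thinned to 2000 UMIs it was 1.98 in Treg. Its order across types ran against that of the other receptors. Treg and CD8_03 held the most, at 87.4 and 84.9 CPM in the RGX-104 library and 68.7 and 73.5 CPM in the control library. The Th1 types held 44.7 to 49.9 CPM in the RGX-104 library and 42.2 to 53.7 CPM in the control library, and no neighbours in this order stood clear of each other within T cells.

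Both sphingosine 1-phosphate receptors were close to absent from APC transcripts. S1pr1 had 62 UMIs in RGX-104 APCs and 35 in control APCs, of which 33 and 15 were in mcDC1. S1pr4 had 20 UMIs in RGX-104 APCs and 29 in control APCs, under the minimum for a ratio. In mcDC2 and mLC both libraries had 0 UMIs of S1pr4, where 3 counts would have been 3.08 CPM in RGX-104 mcDC2 and 6.74 CPM in control mcDC2. Cd69 had 123 UMIs in RGX-104 APCs and 186 in control APCs, of which 5 and 76 were in pDC. S1pr1, S1pr4 and Cd69 were under 50 UMIs in each of the 6 compared APC types, so no ratio by type was formed.

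Ccr7 was lower in RGX-104 T cells, at 698 CPM (7901 UMIs), against 875 CPM (10034 UMIs) in control T cells, a ratio of 0.798 (0.775 to 0.822), and 6.83% of measured genes had a lower ratio. The interval lay below 1 in 7 of 8 compared types and above 1 in the remaining one. The share of all measured genes with an interval above 1 was 5.62% in CD8_01, 4.82% in CD8_02, 5.51% in CD8_03, 5.6% in Th1_01, 4.29% in Th1_02, 5.84% in Th1_03, 5.14% in Tfh and 5.77% in Treg. Treg cells stood furthest from 1, with 171 CPM (92 UMIs) in the RGX-104 library and 411 CPM (263 UMIs) in the control library, a ratio of 0.417 (0.325 to 0.530). Tfh cells followed, with 285 CPM in the RGX-104 library and 445 CPM in the control library, a ratio of 0.640 (0.526 to 0.776), beside the lower CD8 marker sum of RGX-104 Tfh cells given above, whose part in it was not tested. The other CD4 types, Th1_01, Th1_02 and Th1_03, had ratios of 0.726, 0.722 and 0.782, and CD8_01 and CD8_02 had 0.795 and 0.835. CD8_03 went the other way, with 586 CPM (739 UMIs) in the RGX-104 library and 523 CPM (598 UMIs) in the control library, a ratio of 1.12 (1.005 to 1.25). Of the measured genes, 72.7% had a lower ratio than Ccr7 in CD8_03, 20.1% in CD8_02 and 0.301% in Treg. In the CD8_03 cells with both cycle scores under 0 the direction turned, to a ratio of 0.964.

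Shares of cells with a Ccr7 UMI lay in the same direction as the Treg and CD8_03 ratios, with intervals that overlapped in both types. At 2000 UMIs per cell, 17.9% of 78 RGX-104 Treg cells (10.2 to 28.3) and 35.6% of 90 control Treg cells (25.7 to 46.3) held a Ccr7 UMI. In CD8_03 the shares were 53.8% of 182 RGX-104 cells (46.3 to 61.2) and 45.1% of 175 control cells (37.6 to 52.8). The Treg label held up against its markers: Foxp3, Il2ra, Ikzf2 and Ctla4 summed to 3219 CPM in RGX-104 Treg cells and 3140 CPM in control Treg cells, and to at most 574 CPM in the other compared types.

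**Figure D3:**
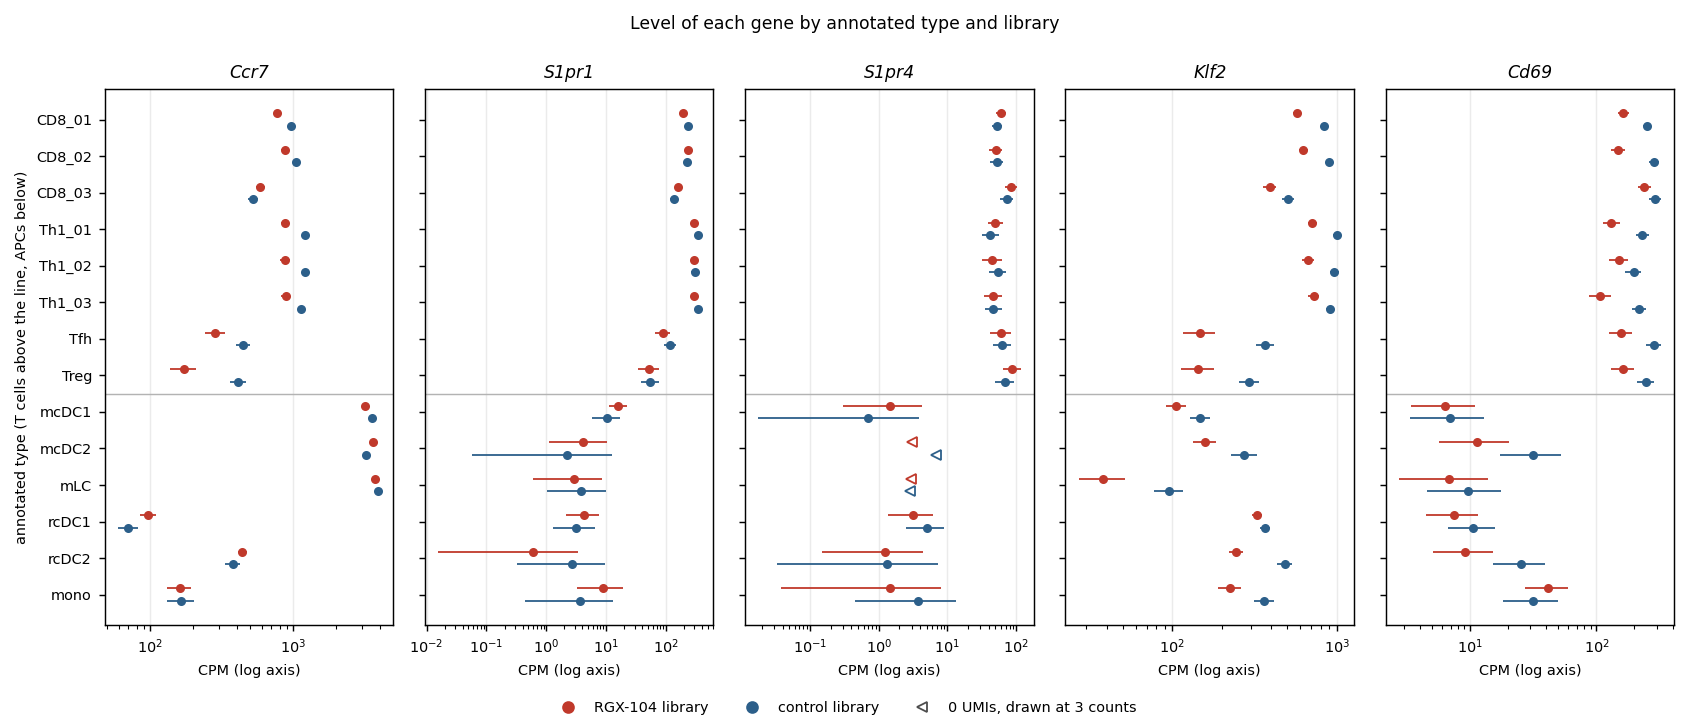
Level of each gene in CPM (log axis) in each compared type, RGX-104 library above control library, with exact Poisson 95% intervals. Open triangles mark 0 UMIs and are drawn at the level of 3 counts. Ccr7 is at 3187 CPM or more in mLC, mcDC1 and mcDC2, and S1pr1, S1pr4 and Cd69 are far lower in APC types than in T cell types.

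Within T cells, Ccr7, S1pr1 and Klf2 kept a common order. In the control library Klf2 ran from 1005 CPM in Th1_01 through 836 CPM in CD8_01 and 507 CPM in CD8_03 to 294 CPM in Treg. S1pr1 ran from 339.9 CPM in Th1_01 to 54.7 CPM in Treg, and Ccr7 from 1209 CPM in Th1_02 to 411 CPM in Treg. The 3 Th1 types did not stand clear of each other for any of these genes in either library, and CD8_03 stood below CD8_01 for Ccr7 and Klf2 in both. Over the 16 sums of T cell types, the Pearson correlation of log2(CPM + 10) was 0.977 between Ccr7 and Klf2, 0.933 between Ccr7 and S1pr1 and 0.907 between Klf2 and S1pr1. S1pr4 was negatively correlated with Ccr7 (-0.78), and Cd69 had a correlation of 0.01 with Ccr7. Outside T cells the order was not shared: the correlation between Ccr7 and Klf2 was -0.733 over the 12 sums of APC types. Over all 28 sums of both lineages it was -0.209. These points share 2 libraries and their depths, and the split into lineages was chosen after the data were seen.

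Cells of 4 further T cell types were too few to compare, and their values carry wide counting error. Cytotoxic T cells held 135 CPM of Ccr7 in the RGX-104 library (44 cells) and 458 CPM in the control library (16 cells), and 69.4 CPM of S1pr1 in the RGX-104 library and 197 CPM in the control library. Gamma delta T cells had 2 Ccr7 UMIs in the RGX-104 library (37 cells) and 8 in the control library (65 cells), with Cd69 at 267 CPM in the RGX-104 library and 319 CPM in the control library. Bcat1+ T cells held 780 CPM of Ccr7 in the RGX-104 library (58 cells) and 677 CPM in the control library (30 cells), but S1pr1 at 19.4 CPM in the RGX-104 library and 14.0 CPM in the control library. Klf2 was lower in the RGX-104 library in all 4, from 598 CPM against 720.1 CPM in IFN-responsive T cells to 89.1 CPM against 177 CPM in gamma delta T cells.

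In APCs, Ccr7 marked the migratory types and did not differ over all APCs beyond counting error. All APCs held 1526 CPM of Ccr7 (15187 UMIs) in the RGX-104 library and 1540.0 CPM (11257 UMIs) in the control library, a ratio of 0.991 (0.967 to 1.02). That sum covered types that differed in direction. In mcDC1, Ccr7 stood at 3187 CPM in the RGX-104 library and 3563 CPM in the control library, a ratio of 0.894 (0.862 to 0.928). The 4 neutrophil markers summed to 764 CPM in RGX-104 mcDC1 and were all at 0 in control mcDC1, with 1564 of the 1567 UMIs in 1 of 214 RGX-104 cells. Without the 4 cells that held such a UMI, an alternative chosen after seeing the data, the mcDC1 ratio was 0.899 for Ccr7 and 0.717 for Klf2. In mLC it stood at 3726 CPM in the RGX-104 library and 3912 CPM in the control library, a ratio of 0.953 (0.911 to 0.996), which was 1.02 thinned to 2000 UMIs per cell. In mcDC2 it stood at 3619 CPM in the RGX-104 library and 3207 CPM in the control library, a ratio of 1.13 (1.06 to 1.20). Part of the control mcDC2 stood apart: 7 control cells called S or G2M held 1346 CPM of Ccr7 and 11 of the 14 Cd69 UMIs of the type, while 15 such RGX-104 cells held 3890 CPM. In the G1 mcDC2 the levels were 3581 CPM in the RGX-104 library (89 cells) and 3541 CPM in the control library (50 cells), a ratio of 1.01.

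Among the types with little Ccr7, the interval lay above 1 in rcDC1 and rcDC2 and included 1 in mono. In rcDC1 it stood at 96.3 CPM (247 UMIs) in the RGX-104 library and 69.6 CPM (153 UMIs) in the control library, a ratio of 1.38 (1.13 to 1.70). In each library 1 rcDC1 cell carried a large part of that, 27.9% of the UMIs in the RGX-104 library and 24.2% in the control library. In rcDC2 Ccr7 stood at 439 CPM in the RGX-104 library and 375 CPM in the control library, a ratio of 1.17 (1.02 to 1.35), and in mono the ratio was 0.978 (0.732 to 1.31). Intervals lay above 1 in 3 of 6 types and below 1 in 2. Of the measured genes, 33.2% had a lower ratio than Ccr7 in mcDC1, 39.7% in mLC and 52.1% in mono. In mcDC2 that share was 71.9%, in rcDC2 74.5% and in rcDC1 93.0%. The share of all measured genes with an interval above 1 was 6.13% in mLC, 7.59% in mcDC1, 6.51% in mcDC2, 7.45% in rcDC1, 6.7% in rcDC2 and 9.65% in mono. At 2000 UMIs per cell, 97.2% of RGX-104 mcDC1 and 97.5% of control mcDC1 held a Ccr7 UMI, and 10.4% of RGX-104 rcDC1 and 8.40% of control rcDC1 did. The share was lower in RGX-104 rcDC2 (28.7%) than in control rcDC2 (37.6%). It was also lower in RGX-104 mono (14.9%) than in control mono (20.5%), and the intervals overlapped in both types. The rcDC2 with a Ccr7 UMI held a mean of 3.21 in the RGX-104 library and 2.22 in the control library. Of the APC types with too few cells to compare, macrophages held 57.9 CPM in the RGX-104 library and 53.4 CPM in the control library, and Gm26917+ mcDC held 2274 CPM in the RGX-104 library and 2370 CPM in the control library.

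**Figure D4:**
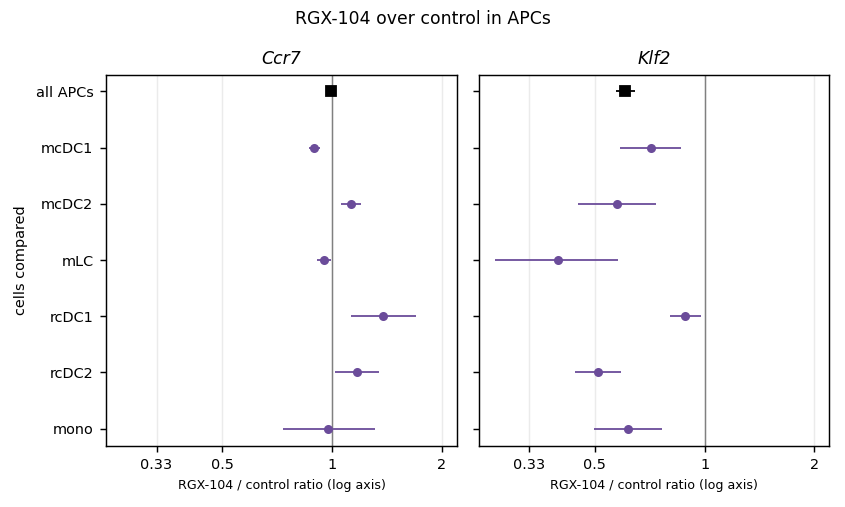
Ratio of Ccr7 and Klf2, RGX-104 over control, in all APCs (black squares) and in the 6 compared APC types (circles), on a log axis with 95% counting intervals. Ccr7 lies below 1 in mcDC1 and mLC and above 1 in mcDC2, rcDC1 and rcDC2, and Klf2 lies below 1 in all 6 types.

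The labels of the migratory types were checked against 9 markers of mature migratory dendritic cells, of which Ccr7 is one. They summed to 22998 to 34453 CPM in mcDC1, mcDC2 and mLC of the RGX-104 library and 20507 to 33781 CPM in those of the control library, against at most 1389 CPM in rcDC1, rcDC2 and mono. The 3 Langerhans cell markers Cd207, Epcam and Cd24a summed to 245 CPM in mLC of the RGX-104 library and 205 CPM in those of the control library, but to 389 CPM in rcDC1 of the RGX-104 library and 302 CPM in those of the control library. The type names are therefore used as the authors' labels. Over the 12 sums of APC types, Fscn1, which encodes the actin bundler fascin of mature dendritic cells, had the pattern most like Ccr7 (Pearson r 0.992 of log2(CPM + 10)), followed by Ankrd33b (0.990) and Ccl5 (0.989). Among the APC genes that encode CCR7 ligands or their scavenging receptors, only Ccl19 was measured, at 14.1 CPM in RGX-104 APCs and 13.1 CPM in control APCs, a ratio of 1.07 (0.820 to 1.40).

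Over T cell and APC types together (28 sums, 5199 genes with at least 50 CPM in 1 of them), each gene's nearest pattern was as follows. S1pr1 was closest to Lef1, a transcription factor of naive T cells (r 0.987), then Rflnb and Gimap6. S1pr4 was closest to Sh2d2a, which encodes a T cell adaptor protein (r 0.989), then Gimap5 and Rnf125. Cd69 was closest to Ms4a4b, a T cell membrane protein (r 0.969), then Hsd11b1 and Hcst. Klf2 was closest to Rictor, a subunit of mTOR complex 2 (r 0.903), then Galnt10 and Tpt1. Ccr7 was closest to Rassf2 (r 0.926), then Rasa2 and Dusp11. These points fall into both lineages, which lie far apart in level for most of these genes.

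Cd69 and S1pr1 transcripts were set side by side within cells, since CD69 protein removes S1PR1 from the surface. In the RGX-104 library, T cells with a Cd69 UMI held 167 CPM of S1pr1 and those without held 223 CPM, a ratio of 0.746 (0.685 to 0.813). In the control library they held 202 CPM with and 242 CPM without, a ratio of 0.836 (0.772 to 0.906). Within types the ratio was under 1 in 12 of 14 sums, with 2 intervals below 1, CD8_02 of the RGX-104 library at 0.716 and Th1_02 of the control library at 0.765. Ccr7 was lower as well in the cells with a Cd69 UMI, with ratios of 0.910 (0.870 to 0.951) in the RGX-104 library and 0.911 (0.876 to 0.948) in the control library, and within types 2 of 16 intervals lay below 1 and 2 above 1. Klf2 lay closer to 1: over all T cells its ratio was 0.982 (0.932 to 1.03) in the RGX-104 library and 0.955 (0.914 to 0.997) in the control library, and within types the interval lay above 1 in 6 of 16 sums and below 1 in 1. In Th1_03, Klf2 was higher in the cells with a Cd69 UMI in both libraries, with ratios of 1.38 (1.18 to 1.61) in the RGX-104 library and 1.42 (1.25 to 1.61) in the control library. S1pr4 had ratios of 1.10 (0.938 to 1.28) in the RGX-104 library and 0.932 (0.795 to 1.09) in the control library. Within types its interval lay below 1 in 2 of 10 sums and above 1 in 0. Both were Th1_01, with few UMIs, at 0.510 (0.255 to 0.949) in the RGX-104 library and 0.540 (0.293 to 0.973) in the control library. Control Treg cells with a Cd69 UMI held 517 CPM of Ccr7 and those without held 228 CPM, a ratio of 2.27 (1.67 to 3.11), while in RGX-104 Treg cells the ratio was 1.32 (0.855 to 2.04). Cells with a Cd69 UMI were deeper, with a median of 5488 UMIs against 4742 in the RGX-104 library and 5267 against 4597 in the control library. The difference between libraries in these ratios was not tested. The share of all measured genes with such intervals was not formed for this split.

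Clonally expanded T cells, those whose TCR the authors found in at least 2 cells of the library, had more Cd69. In the RGX-104 library, expanded cells held 186 CPM and the others 156 CPM, a ratio of 1.20 (1.07 to 1.34), and in the control library expanded cells held 294 CPM and the others 240.5 CPM, a ratio of 1.22 (1.10 to 1.36). Within types the interval lay above 1 in 3 of 16 sums and below 1 in 1. Expanded cells were 25.8% of RGX-104 T cells with a clonotype and 16.0% of control ones. Ccr7, S1pr1, S1pr4 and Klf2 had intervals that included 1 in both libraries, with ratios from 0.906 to 1.10. Within types, Klf2 had 4 of 16 intervals below 1 and 1 above 1, and Th1_01 lay on both sides, at 0.645 (0.527 to 0.784) in the RGX-104 library and 1.28 (1.05 to 1.55) in the control library. Cells in S or G2M phase by the authors' call were 51.4% of RGX-104 T cells and 49.2% of control T cells. Relative to G1 cells they held less S1pr1 (0.778 in the RGX-104 library and 0.816 in the control library), less Klf2 (0.816 and 0.843) and less Ccr7 (0.868 and 0.873), with all 6 intervals below 1. The phase call went with type, since 89.4% of RGX-104 and 87.1% of control Th1_02 cells were called S or G2M, against 22.7% of RGX-104 and 31.8% of control Th1_03 cells. Within types the interval lay below 1 in 3 of 14 sums for S1pr1, in 7 of 16 for Klf2 with 1 above 1, and in 4 of 16 for Ccr7 with 1 above 1. S1pr4 did not differ beyond counting error by phase, with ratios of 1.01 and 1.02. For Cd69 the ratio was 0.921 (0.840 to 1.01) in the RGX-104 library and 0.897 (0.834 to 0.965) in the control library. Within types its interval lay below 1 in 5 of 16 sums and above 1 in 0. For the clonotype and phase splits, the share of all measured genes with such intervals was not formed.

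The wider pathway lists put the members in context for all T cells, where the median log2 ratio of all measured genes was -0.01. The KLF2 and FOXO1 list had 20 of 20 genes measured, none at least 1.5-fold different, 13 with an interval below 1 and 3 above 1, and a median of -0.11. Intervals lay below 1 for 12.6% and above 1 for 10.1% of all measured genes in T cells, the background for this and the following list counts. Among them were Klf6 at 0.711 (0.678 to 0.746) and Il7r, the interleukin 7 receptor that keeps naive T cells alive, at 497 CPM in RGX-104 T cells and 567 CPM in control T cells, a ratio of 0.876 (0.845 to 0.908). Foxo1, the factor above Klf2 and Il7r, had a ratio of 0.930 (0.867 to 0.998). Klf3, a relative of Klf2, went the other way at 1.07 (1.02 to 1.12).

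The list for entry into the node had 14 of 15 genes measured, with 4 intervals above 1 and 6 below 1, Ccr7 among the latter, and a median of -0.06. Its 2 genes at least 1.5-fold lower make the selectin ligand sugars and had few UMIs: Fut7 had 21 UMIs in RGX-104 T cells and 37 in control T cells (0.575, 0.320 to 1.01), and Gcnt1 had 61 and 93 (0.665, 0.473 to 0.928). Cxcr4, the CXCL12 receptor, had a ratio of 1.05 (0.984 to 1.12). The sphingosine 1-phosphate list had 11 of 21 genes measured, none at least 1.5-fold different and 2 intervals below 1, S1pr1 and Gnai2, with a median of -0.08. S1pr2 was under 50 UMIs in T cells. Of 21 motility genes, 12 had intervals below 1, 2 above 1 and none was 1.5-fold different, with a median of -0.11.

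**Figure D5:**
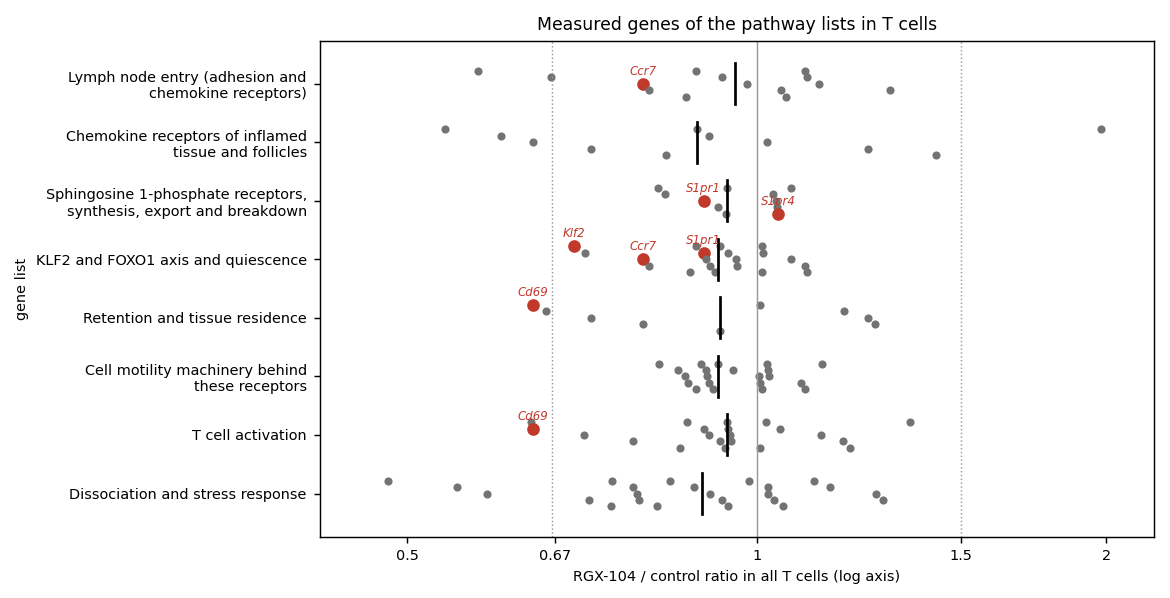
Ratio, RGX-104 over control, of each measured gene of the pathway lists in all T cells (log axis). Red points are the 5 genes of the report, black bars are the list medians and dotted lines mark 1.5-fold either way. Every list median lies left of 1, from -0.17 to -0.06 on the log2 scale, and Cd69 and Klf2 lie near the low end of their lists.

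Retention and tissue residence genes had 9 of 12 measured, with 4 intervals below 1 and 1 above 1 and a median of -0.11. Itgae, the CD103 chain that binds E-cadherin, stood at 38.4 CPM in RGX-104 T cells and 58.3 CPM in control T cells, a ratio of 0.658 (0.582 to 0.744), and with Cd69 it made up the 2 that were at least 1.5-fold lower. Receptors of inflamed tissue and follicles had 11 of 14 measured, 3 at least 1.5-fold lower and 1 higher, with a median of -0.17. Ccr6 (0.539, 0.423 to 0.682), Ccr8 (0.602, 0.473 to 0.763) and the non-signalling receptor Ccrl2 (0.641, 0.489 to 0.837) were lower. Gpr183, the oxysterol receptor that positions cells at the follicle edge, had a ratio of 0.887 (0.820 to 0.959). The T cell activation list had 21 of 21 measured, with 7 intervals below 1, 3 above 1 and a median of -0.09, and its 2 genes at least 1.5-fold lower were Cd69 and Pdcd1 (0.639, 0.504 to 0.806).

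In APCs the median log2 ratio of all measured genes was -0.06, and 4.44% of them were at least 1.5-fold lower and 4.14% at least 1.5-fold higher. Ccrl2, which holds chemerin on the cell surface, stood at 204 CPM in RGX-104 APCs and 104 CPM in control APCs, a ratio of 1.95 (1.80 to 2.13). Ccr9 (0.325, 0.267 to 0.395) and Rac2 (0.526, 0.483 to 0.572) were lower, beside the lower pDC share given above, whose part in them was not tested. Of 21 measured motility genes in all APCs, 10 had intervals below 1 and 2 above 1, against 17.7% and 10.9% of all measured genes. In mono, 14 of 20 motility genes and 7 of 11 entry genes had intervals below 1, and 0 above 1. The share of all measured genes in mono was 12.2% below 1 and 9.65% above 1. Spns2, the sphingosine 1-phosphate exporter, had 42 UMIs in RGX-104 APCs and 52 in control APCs (0.593, 0.385 to 0.908). Nr4a3, a nuclear receptor of dendritic cell migration and activation, stood at 321 CPM in RGX-104 APCs and 155 CPM in control APCs, a ratio of 2.08 (1.94 to 2.22). Klf3 had a ratio of 1.08 (0.976 to 1.21) in APCs and Klf6 one of 0.911 (0.873 to 0.952), beside 0.606 for Klf2.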

How the data were processed

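The matrices that the authors deposited give counts of UMIs for each gene in each barcode. Their headers record Cell Ranger 5.0.0. Genome mm10 and Seurat 5.0.3 stand in the submitters' processing notes. The authors' deposited annotation tables give each cell its counts of UMIs, genes and cells per clonotype, its mitochondrial share in percent, 2 cell cycle score columns, a phase and a type. The TCR contig tables were not used here.

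The tables carry no barcodes, so each cell was joined by its total UMIs, genes (among genes in at least 3 barcodes) and mitochondrial percent. All 5825 cells matched exactly 1 barcode. Annotated cells were 34.0% of RGX-104 and 39.2% of control barcodes, each with at least 801 genes and under 5% mitochondrial UMIs. The authors' table names all of them singlets.

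Counts were summed per library and type and divided by the summed total. Ratios carry exact conditional binomial 95% intervals, CPM exact Poisson ones and shares Clopper-Pearson ones (scipy 1.17.1). With 1 library per chow no test was possible. The ratio code was tested on simulated data.

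The members, lists and tests were chosen with earlier results of these data known. From the lists, genes at least 1.5-fold different in all T cells or all APCs (at most 6 per list) are named, plus Foxo1, Il7r, Klf3, Klf6, Itgae, Gpr183, Cxcr4 and S1pr2; some genes this rule names are not reported here. Alternatives were other scalings (edgeR 4.0.16 in R 4.3.3), minimums, weights, depths and cell filters. Scrublet (scanpy 1.11.5) marked 0 doublets by itself, so one alternative left out the top 6% of barcodes by score. Promoters came from RefSeq for GRCm38.p6.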

Additional observations from a re-analysis of the deposited data

Results flagged for a closer look

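Ccr7 lay on opposite sides of 1 in different T cell types, and the difference between types was not tested. The ratio, RGX-104 over control, was 1.12 in CD8_03 (0.964 in its cells with both cycle scores under 0), against 0.835 in CD8_02 and 0.417 in Treg, the type furthest from it. In APCs the ratio was 1.13 in mcDC2 (1.01 in its cells with both cycle scores under 0) and 1.38 in rcDC1, against 0.894 in mcDC1 and 0.953 in mLC, also untested. The share of measured genes with a lower ratio than Ccr7 was 72.7% in CD8_03, 20.1% in CD8_02 and 0.301% in Treg. In APCs that share was 71.9% in mcDC2, 93.0% in rcDC1, 33.2% in mcDC1 and 39.7% in mLC.

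The barcodes without an annotation, outside every comparison of types, held S1pr1 at 134 CPM in the RGX-104 library and 122 CPM in the control library. That ratio was 1.10 (1.03 to 1.17), on the other side of 1 from the 0.900 of annotated T cells. The 2 ratios do not compare like cells, since these barcodes have no named type and were shallower. Their median was 1161 UMIs in the RGX-104 library and 1147 in the control library, against 5048 and 4944 in T cells.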

How the results depend on the processing

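No paired analysis was possible because each chow had 1 RNA library and the labels give no replicate numbers. For the 5 genes in all T cells and Ccr7 in all APCs, 107 of 122 alternative values stayed within the main interval, 15 left it and 0 changed the direction of a called ratio. Thinning to 2000 UMIs gave 0.767 for Ccr7, 0.911 for S1pr4 and 0.591 for Cd69 in T cells.

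Ccr7 in all APCs, 0.991 in the main values, took either side of 1. It was 1.035 with TMM factors and 1.03 with median-of-ratios factors, 1.02 as a mean over cells, 1.04 thinned, 0.966 in cells with both cycle scores under 0 and 0.965 at equal type weights. It was 1.11 without mLC, 1.05 without mcDC1, 0.907 without mcDC2, 0.931 without rcDC1, 1.04 without rcDC2 and 0.964 in the compared types alone, an alternative chosen after seeing the data.

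Of 504 values for single types and added ratios, 464 stayed within the main interval and 36 left it. The other 4 changed the direction of a ratio whose main interval excluded 1. Where the main interval included 1, values on the other side of 1 were not counted as a change of direction. Ccr7 in mLC was 1.02 thinned. In cells with both cycle scores under 0, Ccr7 in CD8_03 was 0.964, Cd69 in CD8_03 was 1.03, and Klf2 in Th1_02 was 1.20, with 22 RGX-104 and 31 control cells. The cause was not tested. With the compared types alone, chosen after seeing the data, Klf2 in APCs was 0.716 and Cd69 in APCs 0.719.

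The number of measured genes at least 1.5-fold higher and lower was 298 and 170 in T cells, and 428 and 459 in APCs. At 2-fold it was 89 and 45 in T cells, and 157 and 131 in APCs. It was 857 and 608 in T cells and 983 and 1064 in APCs with a minimum of 10 UMIs, and 86 and 40 in T cells and 203 and 132 in APCs with a minimum of 200 UMIs. Counts limit S1pr4 and S1pr1 in single types, and nothing here measures the spread between mice.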

Other observations

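Ccr8, a receptor of activated regulatory T cells chosen here after its values were seen, stood at 80.0 CPM in RGX-104 Treg cells and 153 CPM in control Treg cells, a ratio of 0.523 (0.356 to 0.755).

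In the barcodes without an annotation, Klf2 stood at 338 CPM in the RGX-104 library and 548 CPM in the control library, a ratio of 0.617 (0.596 to 0.639). Cd69 had a ratio of 0.732 (0.698 to 0.768) and Ccr7 one of 1.01 (0.987 to 1.04) in those barcodes. Of the 11603 genes measured there, 13.4% had an interval below 1 and 15.5% one above 1.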
